A study of Mus musculus with 8 samples.

Results

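The protein tyrosine phosphatases named Ptpn (mostly cytosolic enzymes) and Ptpr (mostly receptor-type enzymes) were followed across 4 derivatives of A20, an established murine line from a mature B lymphoma. The members were all non-control probes whose gene name in the array design begins with Ptpn or Ptpr, whatever their signal. This gave 39 genes, 17 Ptpn and 22 Ptpr, measured by 67 of the 55681 probes. Not every name is an active phosphatase: Ptprcap encodes a protein that associates with CD45, and RefSeq lists Ptprv as a transcribed pseudogene. The family was selected on measured values, namely the processed signals of Ptpn7, Ptpn6 and Ptprc over the 4 lines, so these 3 genes are described here with no p-value. Where Ptpn7 stands among counts of called members, it is a description and supports nothing.

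The lines were a stable IgE+ transfectant called clone 18, a second stable IgE+ transfectant called clone 41, a stable IgM+ transfectant, and untransfected cells, with 2 arrays each. All grew in RPMI medium with fetal bovine serum and beta-mercaptoethanol. Both IgE lines are single clones, the labels do not say whether the IgM line is one, and the promoter of the transfected genes is not given. Whether a line's 2 arrays stand for separate cultures is not stated, so each p-value reflects the spread of these samples alone, possibly a technical one.

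Tyrosine phosphatases remove phosphate from tyrosine residues and so oppose the kinases that carry the signal of the B cell receptor. In B cells, CD45 (Ptprc) activates Src family kinases by removing an inhibitory phosphate, whereas SHP-1 (Ptpn6) is recruited to phosphorylated motifs of inhibitory receptors and dampens signalling. A small subfamily with a kinase interaction motif (Ptpn5, Ptpn7 and Ptprr) binds MAP kinases directly and inactivates them.

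The 8 arrays had a 75th percentile of 474 to 664 intensity units, and 49.7% to 58.9% of their spots were well above background. Over 17358 genes, the replicate difference had an SD of 0.32 log2 units in clone 18, 0.37 in clone 41, 0.36 in the IgM line and 0.65 in untransfected cells. All 8 mature B cell markers examined, among them Cd79a, Cd79b, Ms4a1 and Pax5, were above background on every array. Their summed level was 300 to 333 in the IgE lines and 278 to 370 in the control lines, in linear units relative to the 75th percentile. T cell markers summed to 16.58 to 20.23 in the IgE lines and 10.6 to 16.0 in the control lines, with 5 of 9 tested and Cd3d, Cd8a, Trac and Thy1 not tested. Myeloid markers summed to 49.6 to 71.2 in the IgE lines and 45.7 to 63.7 in the control lines (6 of 9 tested). Plasma cell markers summed to 40.7 to 63.2 in the IgE lines and 67.3 to 86.9 in the control lines, and stromal and erythroid markers to 5.65 to 18.9 in the IgE lines and 1.19 to 11.7 in the control lines. Some single markers were called in the pooled comparison described below, with Cd68, Epor and Hbb-b1 higher and Cd3g, Emr1 and Irf4 lower in the IgE lines. Cd3g and Hbb-b1 were also called between IgM and untransfected cells (log2 differences of 4.58 and -3.83). Both clones were called against IgM cells for these 2 genes, and neither against untransfected cells. Cd3g was above background on no IgE array and on 2 control arrays. It passed the filter on dim probes through a control line alone, so its tests have the limit given below for Ptprr. The part of the markers in the results was not tested. A probe described in the files as the mu constant region read 4.64 to 4.88 in IgM cells, against 3.97 to 4.29 in untransfected cells, on the log2 scale used below. The transfected IgE sequence was not checked here.

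All levels below are log2 of the processed signal minus the 75th percentile of that array. Brightness differs between probes for reasons of sequence, so levels are compared between lines for 1 probe and never between genes. A gene was called changed at an adjusted p below 0.05 (limma over all 8 arrays, Benjamini-Hochberg over 19973 genes) and a difference of at least 2-fold.

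A pair of probe sequences and a pair of promoter windows bear on the largest difference of the family, since Ptpn7 and Ptprv lie next to each other and both were low in the IgE lines. The 5′ probe of Ptpn7 lies on the plus strand at chr1:137034388-137034447 of mm9, and the Ptprv probe on the minus strand at chr1:137006182-137006241. Both are printed 5′ to 3′ as in the array files, in lower case with no part marked. At least 1 forward reading frame of each runs through the whole probe without a stop codon.
Ptpn7 probe: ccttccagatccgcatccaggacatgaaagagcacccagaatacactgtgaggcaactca
Ptprv probe: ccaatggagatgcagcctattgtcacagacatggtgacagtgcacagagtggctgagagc

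In the RefSeq annotation of GRCm38.p6, Ptprv spans 135108498 to 135132575 and Ptpn7 135131838 to 135145328 on chromosome 1, so that the gene spans share 738 bases. RefSeq promoter windows, 250 bases before to 50 after a transcript start, are shown for the 2 Ptpn7 starts in the promoter table used (plus strand). The first, chr1:135132450-135132749 of GRCm38.p6, has its first 126 bases inside the Ptprv span, and the second is chr1:135133059-135133358. Capitals mark matches, on either strand, to GAGGAA (an ETS core of the PU.1 type), CAGCTG (an E-box) and GGGCGG (a GC box).
Ptpn7 promoter 1: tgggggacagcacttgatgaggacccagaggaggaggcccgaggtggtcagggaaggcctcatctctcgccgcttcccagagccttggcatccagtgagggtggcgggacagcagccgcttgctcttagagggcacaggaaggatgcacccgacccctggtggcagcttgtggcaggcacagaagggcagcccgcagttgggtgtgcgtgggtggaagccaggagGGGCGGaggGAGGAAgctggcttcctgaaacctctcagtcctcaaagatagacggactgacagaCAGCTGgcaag
Ptpn7 promoter 2: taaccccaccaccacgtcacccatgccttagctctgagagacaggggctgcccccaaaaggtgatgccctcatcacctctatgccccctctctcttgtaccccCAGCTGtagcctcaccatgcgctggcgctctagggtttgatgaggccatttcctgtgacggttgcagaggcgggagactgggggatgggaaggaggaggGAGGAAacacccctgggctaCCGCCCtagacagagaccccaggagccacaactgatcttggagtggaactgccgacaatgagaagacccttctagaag

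Each window held 1 match to each of these motifs, which did not overlap one another. Among 32851 RefSeq promoter windows of the same length, 28.3% held GAGGAA, 16.3% CAGCTG and 35.7% GGGCGG. The octamer ATGCAAAT (in 1.74% of all windows), the EBF motif (0.90%) and the TATA box TATAAA (13.6%) were searched on both strands and matched neither window. The windows had a GC content of 63.3% and 59.0%, with 10 and 7 CpG dinucleotides.

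Of the 39 members, 25 were tested (15 Ptpn and 10 Ptpr), because some probe of theirs was well above background on both replicates of 1 or more lines. A member that is dim in the other lines passes this filter through the lines where it is bright and so had to differ, which holds for Ptprj, Ptprr, Ptprv and Ptprz1: their tests below are read with this limit, and beside them stands the result with no filter on dim probes. Of the 25, 20 were above background on all 8 arrays. Ptprj was so on 5 arrays, Ptprr on 2, Ptpru on 7, Ptprv on 4 and Ptprz1 on 3. The other 14 members were not tested: Ptpn3 and Ptpn20 among the cytosolic enzymes, and Ptprb, Ptprd, Ptpre, Ptprf, Ptprg, Ptprh, Ptprk, Ptprm, Ptprn, Ptpro, Ptprq and Ptprt among the receptors. For 7 of them no probe was well above background on any array, and for the other 7 a probe was so on 1 to 3 arrays. No member spot was saturated.

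**Figure D1:**
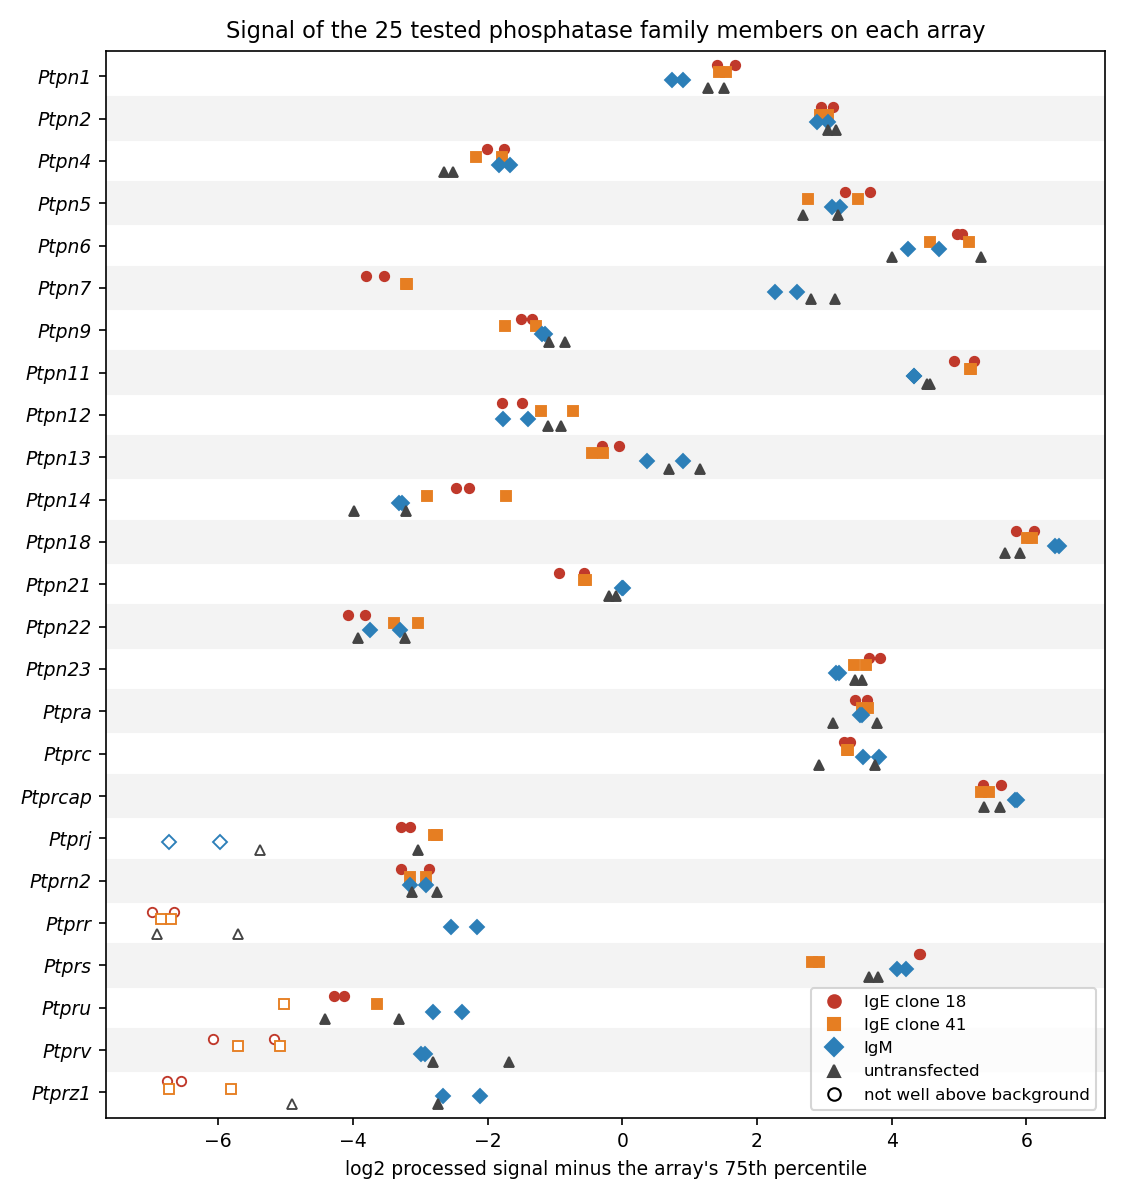
Signal of the probe used for each of the 25 tested members on each of the 8 arrays (log2 processed signal minus the 75th percentile of the array, horizontal axis), coloured and shaped by line, open where the spot was not well above background. Ptpn7 is the member with the widest gap between the 4 IgE arrays (-3.80 to -3.20) and the 4 control arrays (2.27 to 3.16), while Ptpn2 spans 0.28 log2 units over all arrays.

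The mean of the 2 IgE clones was set against the mean of the 2 control lines, the comparison named in the study design. In it 7 of the 25 tested members were called (28%), 2 higher (Ptpn14 and Ptprj) and 5 lower (Ptpn7, Ptpn13, Ptprr, Ptprv and Ptprz1), while 8.99% of all genes were called, 3.4% higher and 5.59% lower. The members were chosen with such values known, so nothing is read from these shares, and Ptpn7 set aside, 6 members were called. The median difference was -0.07 over the members tested and 0.04 over all genes, and 14 members had an unadjusted p under 0.05. Among the 4 comparisons of 1 clone with 1 control line, Ptprv was called in all 4, Ptprz1 in 3, Ptpn13, Ptprj and Ptprr in 2 each, Ptprs in 1 and Ptpn14 in none. Comparisons that share a control line are not independent of each other.

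Among the kinase interaction motif phosphatases, Ptpn7 was lower in both IgE clones, Ptprr was high in IgM cells alone and the probes of Ptpn5 disagreed. Ptpn7, also called HePTP, is a phosphatase of blood cells that inactivates the MAP kinases ERK and p38. Its 3′ probe (mm9 chromosome 1, 137041106 to 137041165) read -3.54 and -3.80 in clone 18 and -3.20 and -3.22 in clone 41, against 2.59 and 2.27 in IgM cells and 3.16 and 2.81 in untransfected cells. All 4 IgE arrays were far below all 4 control arrays, yet every one was still above background. The IgE lines were lower by 6.15 ± 0.15 on the log2 scale (-6.15, SE), a ratio of 70.8, and the 4 clone and control pairs differed by -6.65 to -5.64. With normexp background correction the difference was -4.83, and in the authors' deposited table -5.29. Between the clones the difference was 0.46 ± 0.21, and between IgM and untransfected cells -0.55 ± 0.21. The 5′ probe printed above read -6.78 and -5.79 in clone 18 and -5.35 and -5.08 in clone 41, with no array above background, against -0.76 and -0.79 in IgM cells and -0.47 and -0.18 in untransfected cells. By that probe Ptpn7 was at least 22.3-fold lower in the IgE lines. Here and below, "at least" sets the mean of the brighter side against the dimmer side at the higher of its own signal and the lowest signal well above background on each array.

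Ptpn5, known as STEP and studied mainly in neurons, had probes that disagreed. The probe with the highest signal (mm9 chromosome 7, 54388141 to 54388200, placed on a predicted Ensembl transcript) read 3.69 and 3.31 in clone 18 and 3.50 and 2.75 in clone 41, against 3.11 and 3.24 in IgM cells and 2.68 and 3.20 in untransfected cells. The groups overlapped (0.25 ± 0.22, adjusted p = 0.465 in a limma fit of all 29140 probes, in which 8.99% were called, 3.6% higher and 5.39% lower). The 3′ probe (54333225 to 54333284), designed on the RefSeq transcript, read -3.12 and -2.95 in clone 18 and -3.33 and -2.96 in clone 41, against -1.56 and -1.33 in IgM cells and -0.60 and -1.17 in untransfected cells. All IgE arrays were below all control arrays on this probe, which fell (-1.92 ± 0.18, adjusted p = 0.000853, limma over probes) and was called in all 4 clone and control pairs (-2.26 to -1.59). The middle probe (54337824 to 54337883) passed the filter through a control line alone, so its test has the limit given above for Ptprr. It was above background on no IgE array and on 3 of the 4 control arrays, and it was called at least 2.25-fold lower (adjusted p = 0.00229, limma over probes). That call ended with normexp background correction (-0.32, adjusted p = 0.104) and in the authors' deposited table (-0.71, adjusted p = 0.053), whereas the call of the 3′ probe held in all alternatives tried. Ptpn5 therefore counts as not called among the 25 members, by the rule that takes the brightest probe. The choice to describe its other probes was made after their values were seen.

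Ptprr, a receptor-type enzyme of the same subfamily, was above background in IgM cells alone. It read -6.99 and -6.65 in clone 18 and -6.70 and -6.86 in clone 41, against -2.55 and -2.15 in IgM cells and -6.91 and -5.70 in untransfected cells. IgM cells were at least 7.89-fold higher than untransfected cells (limma adjusted p = 0.00503), the only member called in that comparison, in which 2.03% of all genes were called (1.22% higher and 0.811% lower). Clone 18 was at least 7.19-fold lower than IgM cells (adjusted p = 0.000949) and clone 41 at least 6.13-fold lower (adjusted p = 0.00118). All 4 of its calls held with no filter on dim probes. Neither clone could be told from untransfected cells, since no array of these lines was above background. The call of Ptprr in the pooled comparison (limma adjusted p = 0.00184, at least 1.69-fold lower) thus rested on the IgM arrays, and it ended when the arrays were fitted as 2 groups, with no term for the line (adjusted p = 0.132) or with line as random block (adjusted p = 0.138), and with normexp correction (-0.55).

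**Figure D2:**
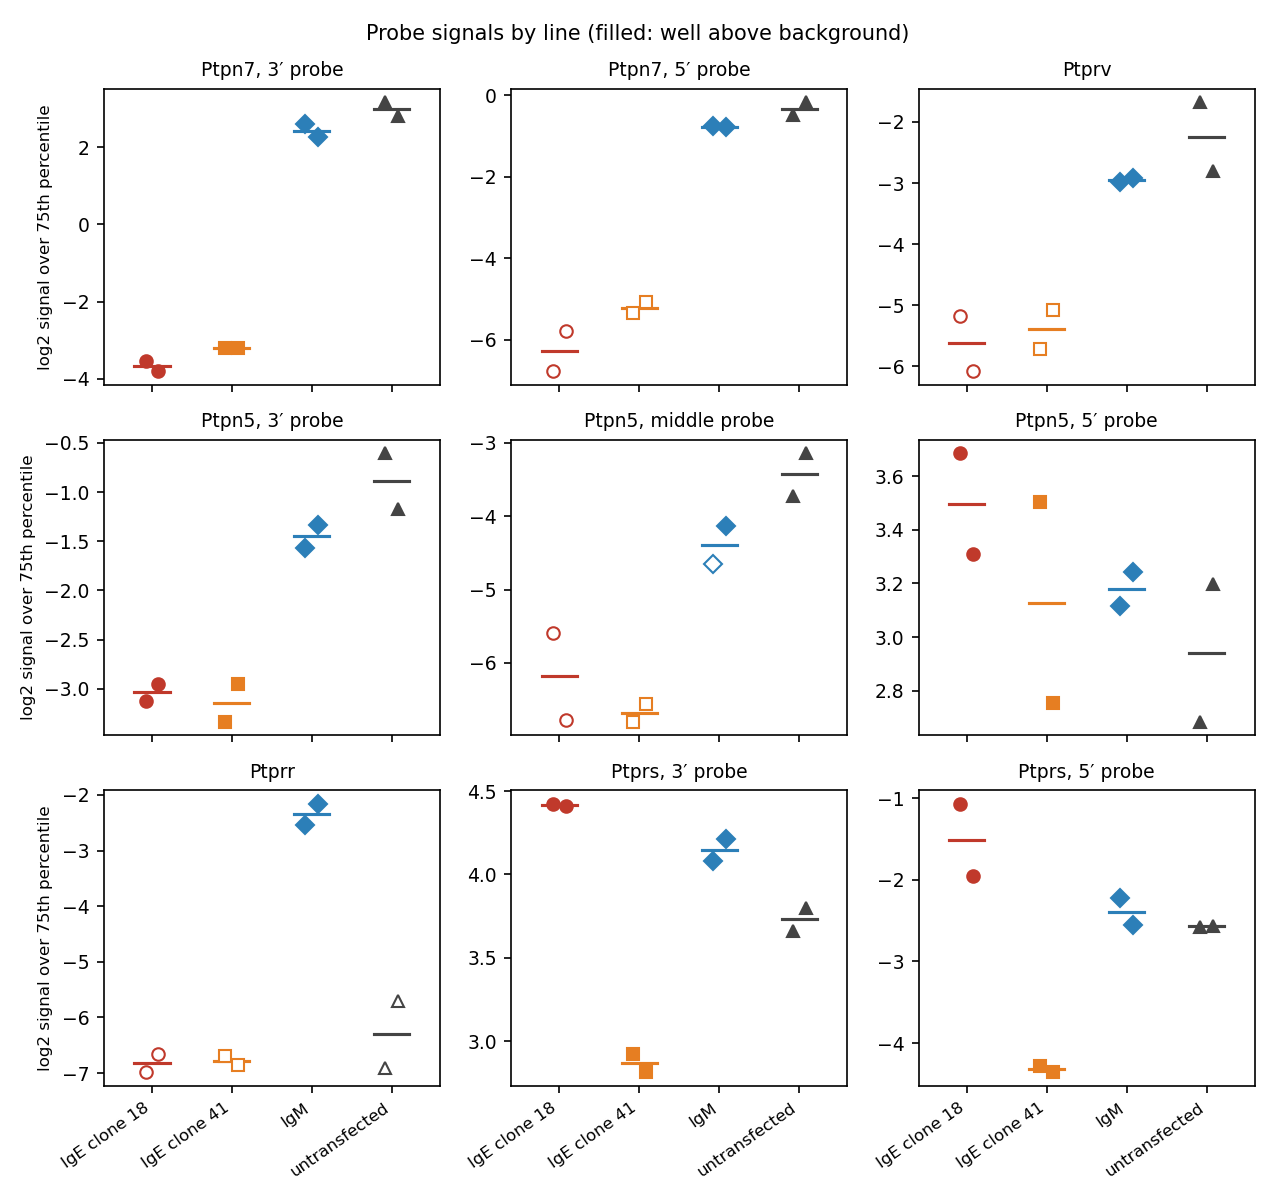
Signal of 9 probes on the 2 arrays of each line (log2 processed signal minus the 75th percentile, separate vertical scale in each panel), with a bar at the line's mean and open symbols where the spot was not well above background. Both Ptpn7 probes, Ptprv and 2 of the 3 Ptpn5 probes are lower in both IgE clones, Ptprr is high in IgM cells alone, and both Ptprs probes are lower in clone 41 than in clone 18.

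Ptprv, known in the mouse as Esp or osteotesticular phosphatase, was studied in bone and testis. It read -5.17 and -6.08 in clone 18 and -5.71 and -5.08 in clone 41, none above background, against -2.99 and -2.93 in IgM cells and -1.68 and -2.81 in untransfected cells. The groups did not overlap. It was at least 5.37-fold lower in the IgE lines (limma adjusted p = 0.0018), a difference under 2-fold with normexp correction (-0.80, adjusted p = 0.00955). The bounds of the 4 pairs were 7.74-fold in clone 18 and 6.11-fold in clone 41 against untransfected cells, and 4.72-fold in clone 18 and 3.73-fold in clone 41 against IgM cells (limma adjusted p 0.00679, 0.0109, 0.0139 and 0.0222). With normexp correction the calls against IgM cells ended (-0.57, limma adjusted p = 0.153, in clone 18 and -0.58, adjusted p = 0.165, in clone 41). With no filter on dim probes the calls against IgM cells also ended (adjusted p = 0.0528 in clone 18 and 0.0767 in clone 41) and the pooled call and those against untransfected cells held. These pair calls ended when some single arrays were left out: against untransfected cells, in clone 18 without its replicate 2 (adjusted p = 0.0517) and in clone 41 without its replicate 1 (adjusted p = 0.078). Against IgM cells they ended in both clones without either IgM array (adjusted p 0.0657 to 0.0993), in clone 18 without its replicate 2 (adjusted p = 0.0905) and in clone 41 without either of its arrays (adjusted p 0.132 and 0.0611). A second Ptprv probe was above background on no array.

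Ptprz1, a receptor phosphatase best known from glia that binds the growth factor pleiotrophin, read -6.56 and -6.76 in clone 18 and -6.73 and -5.82 in clone 41, against -2.66 and -2.12 in IgM cells and -4.91 and -2.74 in untransfected cells. All IgE arrays and untransfected replicate 1 were not above background. It was at least 3.93-fold lower in the IgE lines (limma adjusted p = 0.00498), but the difference was -0.69 with normexp correction. With no filter on dim probes the pooled call and that in clone 18 against IgM cells held. The other calls ended, at an adjusted p of 0.147 for clone 18 against untransfected cells and 0.0644 for clone 41 against IgM cells. Against IgM cells it was at least 6.998-fold lower in clone 18 (adjusted p = 0.0109) and 5.97-fold lower in clone 41 (adjusted p = 0.0174). Against untransfected cells it was called in clone 18 (at least 2.59-fold, adjusted p = 0.0495) and not in clone 41 (adjusted p = 0.0915). In clone 18, normexp correction ended the calls against untransfected cells (-0.39, limma adjusted p = 0.351) and against IgM cells (-1.01, adjusted p = 0.0542). The call in clone 18 against untransfected cells ended without untransfected replicate 2 (adjusted p = 0.056), without either IgM array (adjusted p = 0.0757), without either clone 18 array (adjusted p 0.193 and 0.212) and without either clone 41 array (adjusted p = 0.0727). Against IgM cells the calls ended without IgM replicate 2 (adjusted p = 0.0581 in clone 18 and 0.0845 in clone 41), IgM replicate 1 (0.0653 in clone 41), either clone 18 array (0.0748 and 0.0787 in clone 18) or either clone 41 array (0.108 and 0.0525 in clone 41). Its other 2 probes were above background on no array.

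Ptprj, or CD148, is a receptor phosphatase that with CD45 activates Src family kinases in B cells. Its brightest tested probe (mm9 chromosome 2, 90273131 to 90273190) read -3.29 and -3.16 in clone 18 and -2.76 and -2.79 in clone 41, against -6.74 and -5.98 in IgM cells and -5.37 and -3.03 in untransfected cells. The IgM arrays and untransfected replicate 1 were not above background, and untransfected replicate 2 lay within the range of the IgE arrays. The pooled difference was 2.28 ± 0.49 on the log2 scale (limma adjusted p = 0.023) and rested on IgM cells, and with 1 of 4 control arrays above background its size is not settled. It was 0.81 with normexp correction and 0.93 in the authors' deposited table (adjusted p = 0.0571), both under 2-fold, and with no filter on dim probes the call ended (adjusted p = 0.0755). Clone 18 was at least 3.37-fold and clone 41 at least 4.59-fold higher than IgM cells (adjusted p 0.0342 and 0.0249), while against untransfected cells the differences were 0.98 ± 0.69 and 1.43 ± 0.69 (adjusted p 0.401 and 0.276). A second probe, at -3.2 kb, also rose in the pooled comparison (1.20 ± 0.17, adjusted p = 0.00469, limma over probes, but 0.51 with normexp correction and 0.52 in the authors' deposited table), another was not called (-0.38 ± 0.52, adjusted p = 0.655), and the other probe was not tested. The pooled call of the brightest probe ended when the arrays were fitted as 2 groups, with no term for the line (adjusted p = 0.0584) or with line as random block (adjusted p = 0.0654), without IgM replicate 1 (adjusted p = 0.0739) and without any 1 of the 4 IgE arrays (adjusted p 0.0668 to 0.0818). The calls against IgM cells ended with no filter on dim probes (adjusted p = 0.106 in clone 18 and 0.085 in clone 41) and in the authors' deposited table (1.19, adjusted p = 0.0989, in clone 18 and 1.51, adjusted p = 0.063, in clone 41), and in clone 18 with normexp correction (0.97). They also ended when any 1 IgM or IgE array was left out, with an adjusted p of 0.0629 to 0.169 in clone 18 and 0.0622 to 0.129 in clone 41.

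Ptprs, or PTP sigma, is an adhesion-type receptor of the LAR family that binds proteoglycans. It was the only member called between clone 41 and clone 18, where 0.355% of all genes were called (0.175% higher and 0.18% lower). It read 2.92 and 2.81 in clone 41, against 4.42 and 4.41 in clone 18, 4.08 and 4.22 in IgM cells and 3.66 and 3.80 in untransfected cells. Clone 41 was below every other array, and clone 18 was above every other array. Clone 41 was 2.93-fold lower than clone 18 (-1.55 ± 0.15, limma adjusted p = 0.014) and 2.43-fold lower than IgM cells (-1.28 ± 0.15, adjusted p = 0.00432). It was lower than untransfected cells by 0.86 ± 0.15 on the log2 scale (-0.86, adjusted p = 0.0241), short of 2-fold, whereas clone 18 differed from untransfected cells by 0.69 ± 0.15 (adjusted p = 0.0411), also short of 2-fold. The 5′ probe (mm9 chromosome 17, 56585269 to 56585328) gave the same order, with -2.81 ± 0.30 between clone 41 and clone 18 (adjusted p = 0.0202, limma over probes), a call that ended with normexp correction (adjusted p = 0.134), in the authors' deposited table (0.275) and without clone 18 replicate 1 (0.0738) or either clone 41 array (0.135 and 0.149). For the 3′ probe the call between the clones ended when any 1 of the 4 IgE arrays was left out (adjusted p 0.0981 to 0.167) and in the authors' deposited table (adjusted p = 0.123), with differences of -1.603 to -1.496. Since the clones moved apart, the pooled difference of Ptprs was small (-0.30 ± 0.11, adjusted p = 0.107). Ptpru, another adhesion-type receptor, read -4.13 and -4.28 in clone 18 and -5.02 and -3.64 in clone 41, against -2.81 and -2.37 in IgM cells and -4.41 and -3.32 in untransfected cells. It was not called (-1.04 ± 0.37, limma adjusted p = 0.0951), although it passed without untransfected replicate 1 (-1.31, adjusted p = 0.0448) and without clone 41 replicate 2 (-1.38, adjusted p = 0.0439). Of the 12 adhesion-type receptors on the array, these 2 and Ptprz1 were the ones tested.

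**Figure D3:**
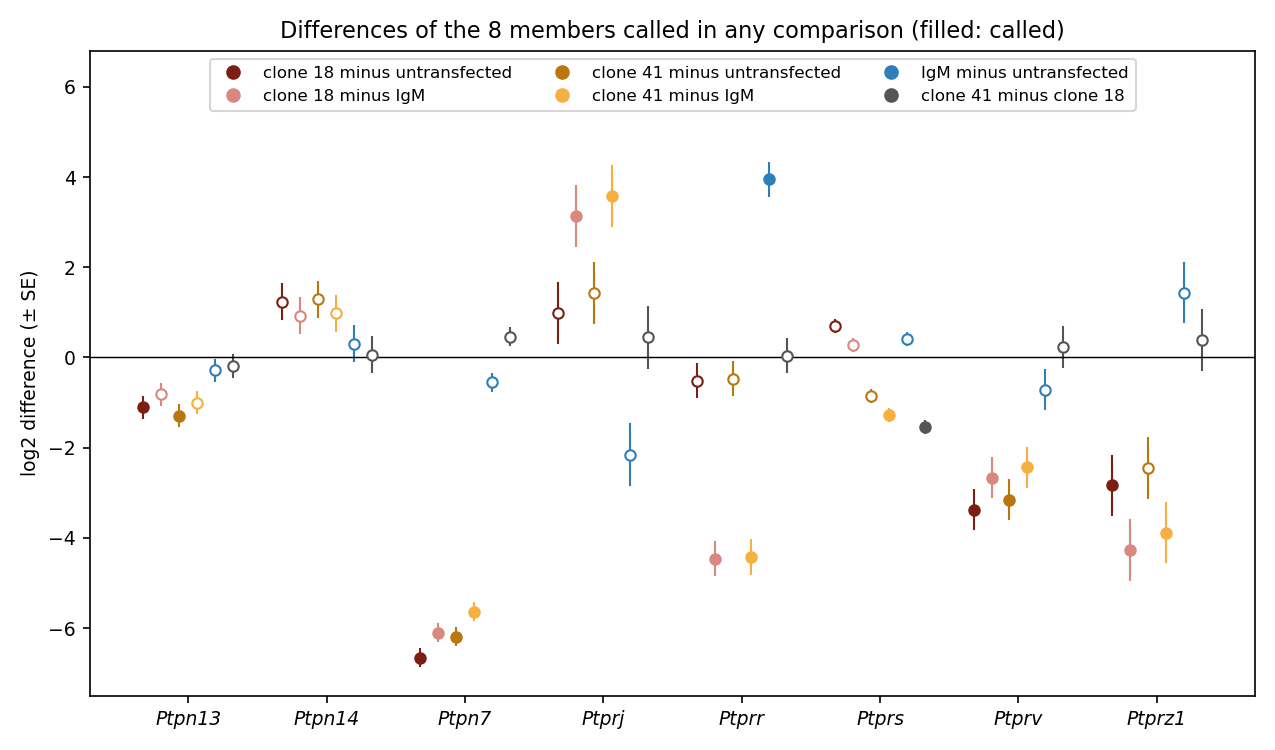
Log2 differences with standard errors (vertical axis) of the 8 members called in any comparison, for each clone against each control line, the IgM line against untransfected cells and clone 41 against clone 18, filled where called. Ptprv is filled below 0 in all 4 clone and control comparisons, Ptpn7 is drawn as a description, Ptprr is filled against the IgM line alone and in the IgM line against untransfected cells, and Ptprs is filled between the clones.

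The FERM and PDZ phosphatases, large enzymes at the cell cortex, moved in both directions. Ptpn13 (PTP-BL in the mouse) read -0.30 and -0.05 in clone 18 and -0.45 and -0.28 in clone 41, against 0.37 and 0.91 in IgM cells and 1.16 and 0.69 in untransfected cells. The groups did not overlap, and the IgE lines were 2.07-fold lower (-1.05 ± 0.18, limma adjusted p = 0.0101). Its second probe differed by -1.003 ± 0.22 (adjusted p = 0.0238, limma over probes), at the 2-fold limit. The difference fell short of 2-fold without untransfected replicate 1 (-0.94), IgM replicate 2 (-0.92) or clone 18 replicate 1 (-0.99), and with both untransfected arrays left out (-0.91). Against untransfected cells Ptpn13 was called in clone 18 (-1.10 ± 0.26, adjusted p = 0.0449) and clone 41 (-1.29 ± 0.26, adjusted p = 0.0333), and against IgM cells in neither (adjusted p 0.0984 and 0.0611). With the replicate number as a block the call in clone 18 ended (limma adjusted p = 0.0613), as it did with quantile normalization (-1.08, adjusted p = 0.0565). Both calls against untransfected cells ended without untransfected replicate 1 (adjusted p 0.0875 in clone 18 and 0.0585 in clone 41) and without any 1 of the 4 IgE arrays (0.0809 to 0.247 in clone 18, 0.071 to 0.179 in clone 41).

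Ptpn14, a FERM domain phosphatase known to bind the Hippo pathway protein YAP, read -2.27 and -2.47 in clone 18 and -2.89 and -1.73 in clone 41, against -3.31 and -3.28 in IgM cells and -3.22 and -3.99 in untransfected cells. All IgE arrays were above all control arrays. The pooled difference was 1.11 ± 0.29, or 2.16-fold (limma adjusted p = 0.0445), and no single pair passed (adjusted p 0.122 to 0.215). With normexp correction the pooled difference was 0.74, under 2-fold. The call also ended with the replicate block (limma adjusted p = 0.0629) and in the authors' deposited table (limma adjusted p = 0.0755). It did so as well without untransfected replicate 2, IgM replicate 1 or 2, clone 18 replicate 1 or 2, or clone 41 replicate 2. Of 21 alternatives tried, 11 ended the call. Ptpn21, the closest relative of Ptpn14, differed in the other direction by -0.58 ± 0.12 (adjusted p = 0.0228), short of 2-fold. It read -0.93 and -0.57 in clone 18 and -0.56 and -0.54 in clone 41, against 0.01 and -0.01 in IgM cells and -0.19 and -0.09 in untransfected cells. Ptpn4 was not called, and Ptpn3 was not tested.

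Of the phosphatases best known from the B cell receptor itself, Ptpn6 and Ptprc overlapped between the IgE and control lines, and Ptpn11 was higher in the IgE lines, short of 2-fold. Ptpn6 (SHP-1) read 5.04 and 4.97 in clone 18 and 5.15 and 4.58 in clone 41, against 4.70 and 4.24 in IgM cells and 5.33 and 4.01 in untransfected cells. The untransfected arrays held both its highest and its lowest value, and the difference was 0.36 ± 0.31 on the log2 scale. Ptprc (CD45) read 3.30 and 3.38 in clone 18 and 3.35 and 3.33 in clone 41, against 3.81 and 3.57 in IgM cells and 3.76 and 2.92 in untransfected cells, a difference of -0.18 ± 0.20. The array measures Ptprc by 1 probe and so gives no view of its splice forms. Ptpn11 (SHP-2), which promotes signalling through ERK, read 4.93 and 5.23 in clone 18 and 5.16 and 5.18 in clone 41, against 4.33 and 4.34 in IgM cells and 4.52 and 4.57 in untransfected cells. All 4 IgE arrays exceeded all 4 control arrays, by 1.61-fold in the mean (0.68 ± 0.12, limma adjusted p = 0.00984), short of 2-fold.

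In all, 17 of the 25 tested members were called in none of the 7 comparisons. Besides Ptpn6 and Ptpn11, those with the highest probe signals were Ptpn18, a phosphatase that binds the kinase CSK (-0.11 ± 0.12, adjusted p = 0.558), Ptprcap (-0.23 ± 0.12, adjusted p = 0.245), the Src activator Ptpra (0.07 ± 0.17, adjusted p = 0.794) and the endosomal protein Ptpn23 (0.29 ± 0.11, adjusted p = 0.124), all from limma. Ptpn2, which acts on JAK and STAT proteins, had the narrowest range of the 25, from 2.90 to 3.17 over the 8 arrays. Ptpn2, Ptpn1, Ptpn4, Ptpn9, Ptpn12, Ptpn22 and Ptprn2 had smallest adjusted p values of 0.0536 to 0.723 over the 7 comparisons. Of the 8 cytosolic immune phosphatases tested, none but Ptpn7, whose values chose the family, was called by limma, with 3 of the 8 at an unadjusted p under 0.05 (8.99% of all genes were called). Of the 4 blood cell receptor-type members tested, Ptprj was the 1 called, and of the granule proteins Ptprn and Ptprn2 the second was tested and not called.

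By comparison, clone 18 against untransfected cells called 4 of 25 members (all genes 7.69%, 3.34% higher and 4.35% lower), all lower: Ptpn7, Ptpn13, Ptprv and Ptprz1. Clone 18 against IgM cells called 5 (all genes 9.14%, 3.4% higher and 5.74% lower), with Ptprj higher and Ptpn7, Ptprr, Ptprv and Ptprz1 lower. Clone 41 against untransfected cells called 3 (all genes 5.6%, 2.42% higher and 3.18% lower), Ptpn7, Ptpn13 and Ptprv, all lower. Clone 41 against IgM cells called 6 (all genes 7.39%, 2.66% higher and 4.73% lower), with Ptprj higher and Ptpn7, Ptprr, Ptprs, Ptprv and Ptprz1 lower.

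Probes within 300 kb of Ptpn7, Ptpn5 and Ptprj were read in the same fit of all probes, with the window chosen after the members' values were seen. In that fit 8.99% of all probes were called, 3.6% higher and 5.39% lower, and the centre genes' own probes, which prompted the windows, are counted among the calls as a description. Around Ptpn7, 14 probes of 11 genes were tested and 4 probes were called, all lower: both Ptpn7 probes, Ptprv and 1 of 2 Lgr6 probes. Arl8a, 11.6 kb from the 3′ probe of Ptpn7, differed by -0.13 ± 0.18 (adjusted p = 0.65), and Rnpep, Timm17a, Ipo9, Shisa4, Ppp1r12b and Ube2t were not called either. The Lgr6 probe followed clone 41 alone: it read -2.86 and -2.45 in clone 18 and -6.89 and -6.80 in clone 41, against -1.996 and -1.47 in IgM cells and -2.82 and -2.97 in untransfected cells. Clone 41 was at least 4.97-fold lower than clone 18 for Lgr6 (adjusted p = 0.00138, limma over probes), whereas Ptpn7 and Ptprv were low in both clones. The other Lgr6 probe was above background on no clone 41 array either (pooled -0.83 ± 0.29, adjusted p = 0.101).

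Around Ptpn5, 4 of 14 tested probes were called, all lower. Tmem86a, at -23.3 kb from the 3′ probe of Ptpn5, was above background on 1 of the 4 IgE arrays and on all control arrays. It read -4.73 and -5.24 in clone 18 and -5.40 and -4.44 in clone 41, against -2.11 and -2.28 in IgM cells and -3.31 and -1.40 in untransfected cells. It fell (-2.68 ± 0.44, adjusted p = 0.00852, limma over probes), although not past the threshold in clone 41 against untransfected cells (adjusted p = 0.0629). The Tmem86a probe passed the filter through the control lines alone, so its tests have the limit given above for Ptprr. One of 2 Spty2d1 probes fell (-1.04 ± 0.22, adjusted p = 0.0208) and the other was short of 2-fold (-0.75 ± 0.20). The other genes tested there, among them Ldha, Tsg101 and Uevld, were not called. Around Ptprj, 4 of the 5 tested probes were called, all higher: 2 of Ptprj and 1 each named 2310079F09Rik (adjusted p = 0.0083, at least 1.97-fold, above background on 3 IgE arrays and on no control array) and A630073K07Rik (1.98 ± 0.42, adjusted p = 0.0226). The bound of 2310079F09Rik is under 2-fold, and its probe passed the filter through clone 41 alone, with the limit given above for Ptprr. Like Ptprj, both were called against IgM cells in each clone and against untransfected cells in neither. Which transcripts these names belong to is not annotated in the table used.

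**Figure D4:**
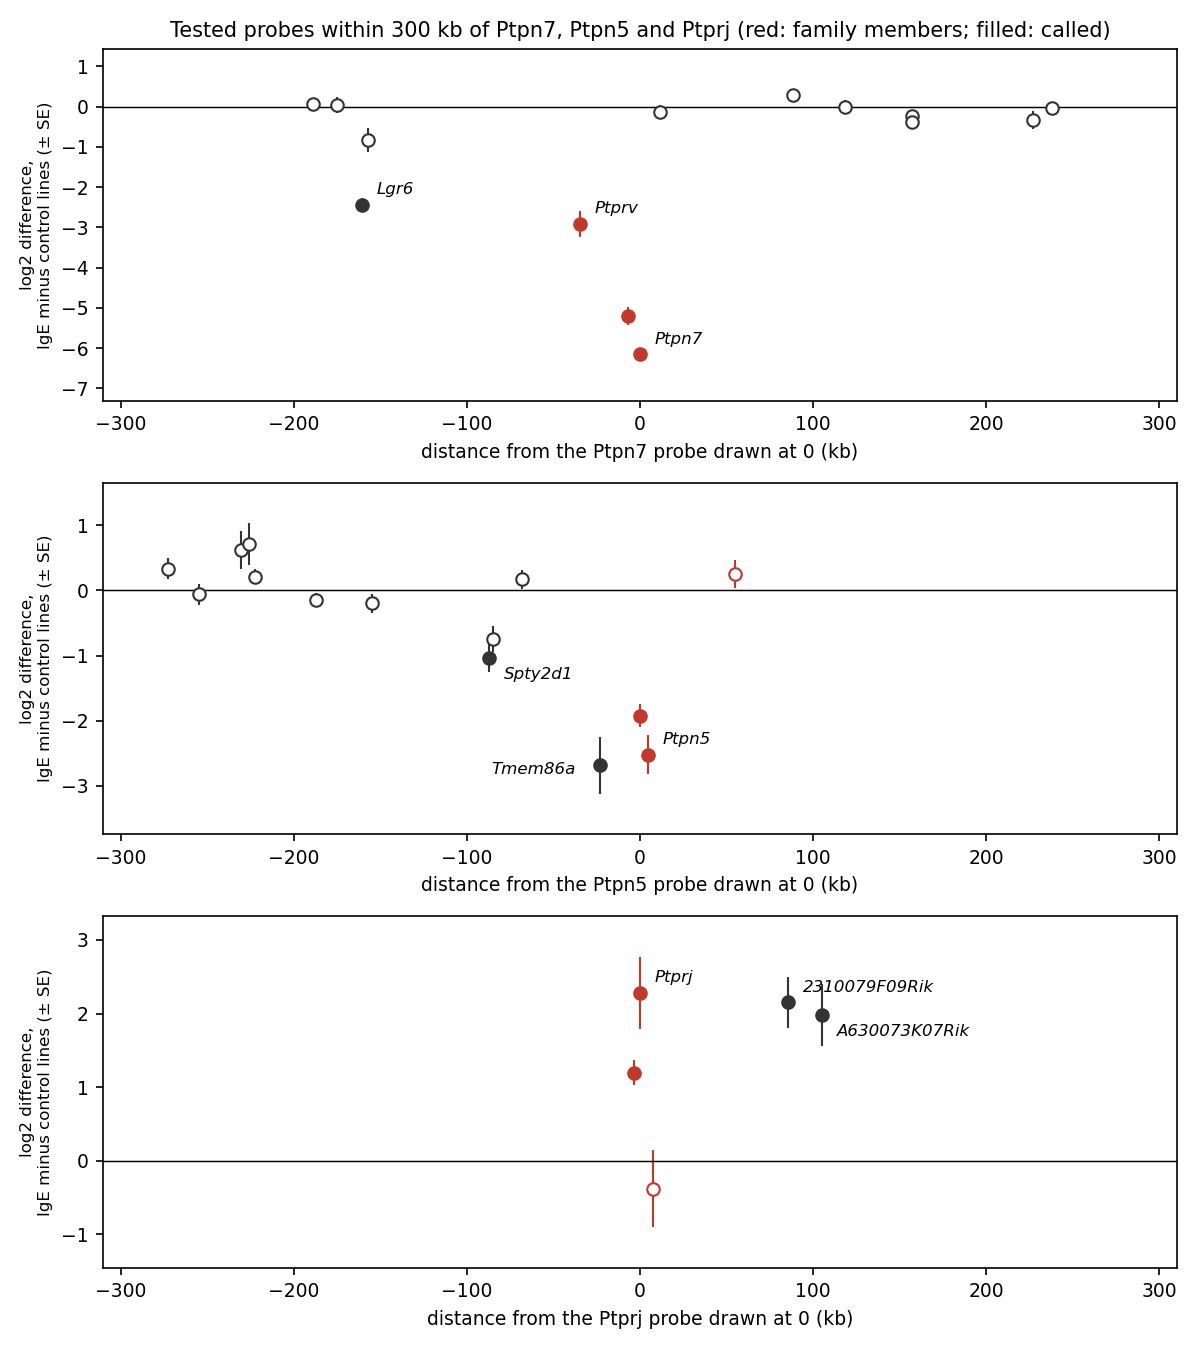
Log2 difference between IgE and control lines with its standard error (vertical axis) of every tested probe within 300 kb of Ptpn7, Ptpn5 and Ptprj, by distance in kb along the chromosome from the member's probe drawn at 0 (horizontal axis), red for family members and filled where called. The low values near Ptpn7 are its own 2 probes, Ptprv and, farther away, Lgr6, with Arl8a 11.6 kb on the other side near 0.

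Genes that work with these phosphatases were read from lists in the pooled comparison (limma, called genes given as higher and lower of those tested, with the median beside 0.04 for all genes). Each count is to be read against all genes, of which 8.99% were called, 3.4% higher and 5.59% lower. The list of MAP kinases and their activating kinases includes ERK and p38 kinases, on which Ptpn7 acts, and others. None of the 14 tested was called by limma (median 0.02), although 5 had an unadjusted p under 0.05. The nearest was p38 gamma (Mapk12, -1.04 ± 0.29, adjusted p = 0.0531), chosen after its value was seen, which was called without untransfected replicate 1 (-1.29, adjusted p = 0.0165), with probes above background on all 8 arrays, with trend and robust priors and in the fit of 2 groups with no term for the line. Erk1 (Mapk3) differed by 0.11 ± 0.13 and p38 alpha (Mapk14) by 0.09 ± 0.18. Of 17 dual-specificity phosphatases, some of which act on MAP kinases, 2 were higher (Dusp9, 4.26-fold, and Dusp5, 2.58-fold) and 3 lower (Dusp10, 3.58-fold, Dusp23, at least 2.37-fold, and Dusp22, 2.08-fold), with a median of -0.38. Dusp23 was called in all 4 clone and control pairs, Dusp9 in 3, Dusp22 in the 2 with untransfected cells, Dusp10 in 1 and Dusp5 in none. Dusp23, above background on no IgE array, passed the filter through the control lines alone, so its tests have the limit given above for Ptprr. Dusp9 was also called between IgM and untransfected cells, where it was lower in IgM cells (-2.35, adjusted p = 0.00356), and the pair without a call, clone 18 and untransfected cells, had a difference of 0.58.

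Of 14 genes from a list of inhibitory receptors and their relatives, some of which recruit SHP-1 or SHP-2, 2 were higher and 2 lower (median 0.11). Fcgr2b, the inhibitory receptor for IgG, was 2.01-fold higher, and Btla, which restrains lymphocyte activation, 3.45-fold higher. Cd5 was 3.29-fold and Cd72 2.36-fold lower. Fcgr2b was called in 2 of the 4 pairs, Btla in 2, Cd72 in 2 and Cd5 in 3, and Cd22 was not called (-0.84 ± 0.28, adjusted p = 0.0847). Btla and Cd72 were also called between IgM and untransfected cells (log2 differences of 3.89 and 1.94, adjusted p 0.0035 and 0.00428). Of 14 Src family kinases and their regulators, none was higher and 5 were lower (median -0.59). The 4 with the largest changes were Cblc, a ubiquitin ligase gene (90.9-fold), Fyn, a Src family kinase (4.92-fold), Pag1, the membrane anchor of the inhibitory kinase CSK (at least 1.38-fold), and the adaptor gene Dok3 (2.35-fold). Cblc was called in all 4 pairs and also between the clones, Fyn in 3, Pag1 in the 2 with clone 18 and Dok3 in the 2 with IgM cells. Pag1, above background on no IgE array, passed the filter through a control line alone, so its tests have the limit given above for Ptprr. Lyn (0.28 ± 0.17) and Csk (0.20 ± 0.22) were not called.

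Among 16 receptor-proximal kinases and adaptors (median -0.07), the adaptor gene Bank1 was lower (2.24-fold, in the 2 pairs with IgM cells), while Syk differed by -0.09 ± 0.16. Cd79a differed by -0.84 ± 0.14 (adjusted p = 0.00842), short of 2-fold, and was called lower in both pairs with clone 18. Of 12 JAK and STAT genes, Jak3 (2.47-fold, in 3 pairs) and Socs2 (3.2-fold, in 4 pairs) were lower (median -0.02). Of 19 other tyrosine phosphatases, Ssh3, which acts on cofilin (5.12-fold, in 4 pairs), and Cdc14b (2.36-fold, in 3 pairs) were lower (median -0.14). Of 10 partners of LAR family receptors such as Ptprs (median -0.15), the liprin gene Ppfia4 was higher (10.5-fold, in 4 pairs). The liprin gene Ppfibp2 (3.18-fold, in 3 pairs) and the glypican gene Gpc1 (2.36-fold, in 1 pair) were lower.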

How the data were processed

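Total RNA of 8 samples was hybridised with Cy3 to 1-colour Agilent mouse arrays. Per the file headers, spots were read with Agilent Feature Extraction 10.7.3.1, which subtracted background and detrended the processed intensity without normalizing between arrays, and probes were placed on mm9. The authors also deposited a log2 value table, with scale and normalization unstated: its column medians were 5.90 to 5.92, and it ranked the probes of each array as their median pixel intensity did. All arrays shared 1 slide and 1 scan time. The lines sat in separate columns of the slide, so that an effect of the column cannot be told apart from one of the line.

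The log2 processed intensity was scaled by each array's 75th percentile. Control and outlier spots were left out and repeated spots averaged. Probes well above background on both replicates of 1 or more lines were kept (29140 of 55681), and each gene was represented by its brightest probe (19973 genes). Differences were tested with limma 3.58.1 in R 4.3.3, with 1 mean per line over all 8 arrays, and the procedure was tested on simulated data. With 2 arrays per line, the number of arrays limits the precision.

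The members, gene lists and tests were chosen with earlier results of these data known. Named were Ptpn7, Ptpn6 and Ptprc, every other member called in any comparison, the 6 brightest never called, members whose probes disagreed, up to 4 called genes per list with the largest changes, and 10 fixed genes, of which some results are not reported here. Same-numbered arrays were not taken as paired: the correlation of their replicate differences was -0.06 to 0.36. Alternatives are given in the closing section. Promoter and gene annotation are from RefSeq for GRCm38.p6, where all 39 symbols were found. No coordinate was converted between builds, and exon or intron positions of probes were not analysed here.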

Additional observations from a re-analysis of the deposited data

Results flagged for a closer look

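Among the 25 tested members, the 4 arrays of each side were searched for an array far from the other 3, which chance gives in about 1 in 20 groups. Of 50 sides, 3 had one, by the gap to the nearest array as a share of the range. Ptpn14 in untransfected replicate 2 read -3.99, against -3.31 to -3.22 on the other control arrays (0.879). Ptpn21 in clone 18 replicate 1 read -0.93, against -0.57 to -0.54 on the other IgE arrays (0.925). Ptprv in untransfected replicate 1 read -1.68, against -2.99 to -2.81 on the other control arrays (0.862), and leaving that array out kept Ptprv called in the pooled comparison.

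The control lines differed from each other in Ptprr (3.96 in IgM minus untransfected cells, limma adjusted p = 0.00503). The IgE clones differed from each other in Ptprs (-1.55 in clone 41 minus clone 18, limma adjusted p = 0.014).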

How the results depend on the processing

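The number of members called in the IgE lines against the control lines, 7, was 2 with normexp correction and 3 with probes above background on all 8 arrays. Clone 18 against untransfected cells (4) gave 2 with quantile normalization, with no filter, with the 8-array filter and in the authors' deposited table. Clone 18 against IgM cells (5) gave 2 with normexp, 3 with no filter, 1 with the 8-array filter and 2 in the authors' table. Clone 41 against IgM cells (6) gave 3 with no filter, 2 with the 8-array filter and 3 in the authors' table. Clone 41 against untransfected cells (3) gave 5 with every probe its own feature. IgM against untransfected cells (1) gave 0 in limma with the 8-array filter (6 with an unadjusted p under 0.05), and clone 41 against clone 18 (1) gave 0 in limma with no filter and in the authors' table (2 with an unadjusted p under 0.05 in each). Leaving out each array in turn, which leaves 1 array in a line that is then assumed to vary like the others, gave 4 to 7 for the pooled comparison, 1 to 4 and 2 to 5 for clone 18 against untransfected and IgM cells, 1 to 4 and 3 to 7 for clone 41 against untransfected and IgM cells, 1 to 2 for IgM against untransfected cells and 0 to 1 between the clones. The stricter filter tests fewer genes and leaves out Ptprj, Ptprr, Ptpru, Ptprv and Ptprz1; the causes of the other shifts were not tested.

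With the replicate number as a block, Ptpn14 lost its pooled call (1.11, adjusted p = 0.0629) and Ptpn13 its call in clone 18 against untransfected cells (adjusted p = 0.0613).

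Differences of uncalled members near 0 changed sign, none past the threshold. With quantile normalization Ptpn22 was 0.14 and Ptprn2 0.0178. With normexp Ptpn12 was 0.10, Ptpn22 0.12, Ptpra -0.0617 and Ptprn2 0.0488. In the authors' table Ptpn12 was 0.0538, Ptpn2 0.0235, Ptpn22 0.0602 and Ptpra -2e-04. With both untransfected arrays left out, chosen after seeing the data, Ptpn12 was 0.29, Ptpn2 0.0366 and Ptpn4 -0.18. With 1 array left out, Ptpn12 ranged from -0.1278 to 0.1164, Ptpn22 from -0.2022 to 0.1467, Ptprn2 from -0.1678 to 0.0341, Ptpn2 from -0.075 to 0.0113, Ptpra from -0.0913 to 0.2375 and Ptprc from -0.3879 to 0.0322.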
